A study of Rattus norvegicus with 8 samples.

Results

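The 9 genes described here encode small GTPases or proteins that act on them: Rab5b, Rabgap1 and Rabep1 of the Rab family, Agap1, Adap1 and Trim23 of the Arf family, and Diras2, Rasl10b and Rasgrp2 of the Ras family. The tissue was whole medial prefrontal cortex, taken from rats at 6 months of age. The treated group, JFLX, had been given the antidepressant fluoxetine, which blocks serotonin reuptake, at a dose of 10 mg/kg between postnatal days 28 and 48. The control group had received the vehicle, 5% sucrose, in the same period. There were 4 samples in each group, whose RNA was labelled with Cy3 and hybridised to custom one-colour Agilent rat arrays. Neither strain nor sex is given in the sources used here. For control replicates 2 to 4 the description field mentions fluoxetine, but their titles and source names place them among the controls, and that grouping is used here. Whether each sample is a separate animal is not stated in the labels, so the spread between replicates may be technical.

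The members were chosen by gene name from the probes that the authors listed as higher or lower, and those lists had been selected on the difference between JFLX and control on these same 8 arrays. Each member has 1 listed probe, so the group holds 9 of the 582 listed probes and of the 15207 probes with a value. A listed probe had a mean JFLX value of at least 0.4 or at most -0.4 on the log2 scale and a p of at most 0.05 in the authors' deposited table. The members nearest to these limits were Rasgrp2, with a mean JFLX value of 0.44, and Rabep1, with -0.45. Other listed probes lay nearer still, among them Agap2 at 0.41 and Rab3ip at -0.44. Just outside lay unlisted probes with means of 0.3995 and -0.3984. The authors also required detection on at least 3 or 4 arrays of a group, and 1088 higher and 29 lower probes that met both limits were not listed. Detection is not given for unlisted probes in the tables used here. The member with the highest p in the authors' deposited table was Diras2 at 0.0214. Because this contrast chose the members, their differences are given as descriptions and without a test. The other 14625 probes carry no gene name here, so GTPase genes that were not listed were not analysed here.

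Small GTPases are molecular switches, active when bound to GTP and inactive when bound to GDP. Exchange factors load them with GTP, GTPase-activating proteins (GAPs) speed up the hydrolysis that turns them off, and effectors bind the active form. In neurons, Rab proteins direct vesicle and endosome traffic, Arf proteins act in membrane budding and on the actin cytoskeleton, and Ras and Rap proteins relay receptor and calcium signals at synapses.

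The probes of the Rab members are shown because the identity of 1 of them is not evident from its deposited name. The Rabgap1 probe is named Gpr21 in the authors' table, after a G protein-coupled receptor, but its gene ID is that of Rabgap1 in RefSeq. The functional terms the authors' deposited table attaches to it are GTPase activator activity and tubulin binding. Its 60 bases span 1225 bases of genome (chr3:17214934-17216158, plus strand). The Rabep1 probe spans 8626 bases (chr10:57790262-57798887, plus strand), whereas the Rab5b probe covers an unbroken 60 (chr7:1982067-1982126, minus strand). These positions are the deposited ones, for which no genome build is named in the sources used here. The probes read 5′ to 3′ as follows, with no base marked by capitals.
Rab5b probe: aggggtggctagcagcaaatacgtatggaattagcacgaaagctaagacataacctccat
Rabep1 probe: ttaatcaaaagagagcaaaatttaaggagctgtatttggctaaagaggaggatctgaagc
Rabgap1 probe: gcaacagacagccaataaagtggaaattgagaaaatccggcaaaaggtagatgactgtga

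Of the 9 members, 7 were higher in JFLX and 2 were lower. Rab5b and all 6 members of the Arf and Ras families were on the higher side, and the Rab effector Rabep1 and the Rab GAP Rabgap1 were on the lower side. All 9 probes were detected on all 4 arrays of each group. The values are on the log2 scale with the control median at 0, so they show differences between arrays and not how abundant a transcript is. In this bulk tissue, fewer cells of a type and less RNA per cell cannot be told apart.

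Rab5b is the GTPase of early endosomes. Its control values were -0.05, 0.09, 0.02 and -0.02, and its JFLX values were 0.68, 0.74, 0.50 and 0.44. The groups did not overlap, and JFLX replicates 1 and 2 were the higher pair. The difference was 0.58 ± 0.10 (moderated SE, n = 4 per group), or 1.498-fold higher in JFLX.

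Rabep1, rabaptin, is an effector that binds active Rab5 and acts in endosome fusion. Its control values were -0.02, 0.00, 0.11 and -0.00, and its JFLX values were -0.79, -0.45, -0.34 and -0.22. All JFLX arrays were below all controls, and JFLX replicate 1 was the lowest. The difference was -0.47 ± 0.14, a level 1.39-fold lower in JFLX. Rab5b and its effector thus lay on opposite sides of the controls.

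Rabgap1 is a TBC-domain GAP that turns off Rab proteins. Its control values were 0.37, -0.08, 0.08 and -0.37, and its JFLX values were -0.97, -0.79, -0.61 and -0.82. The groups did not overlap, although the controls spread more widely than the JFLX arrays. The difference of -0.80 ± 0.17, or 1.74-fold lower, was the largest in size among the 9 members.

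**Figure D1:**
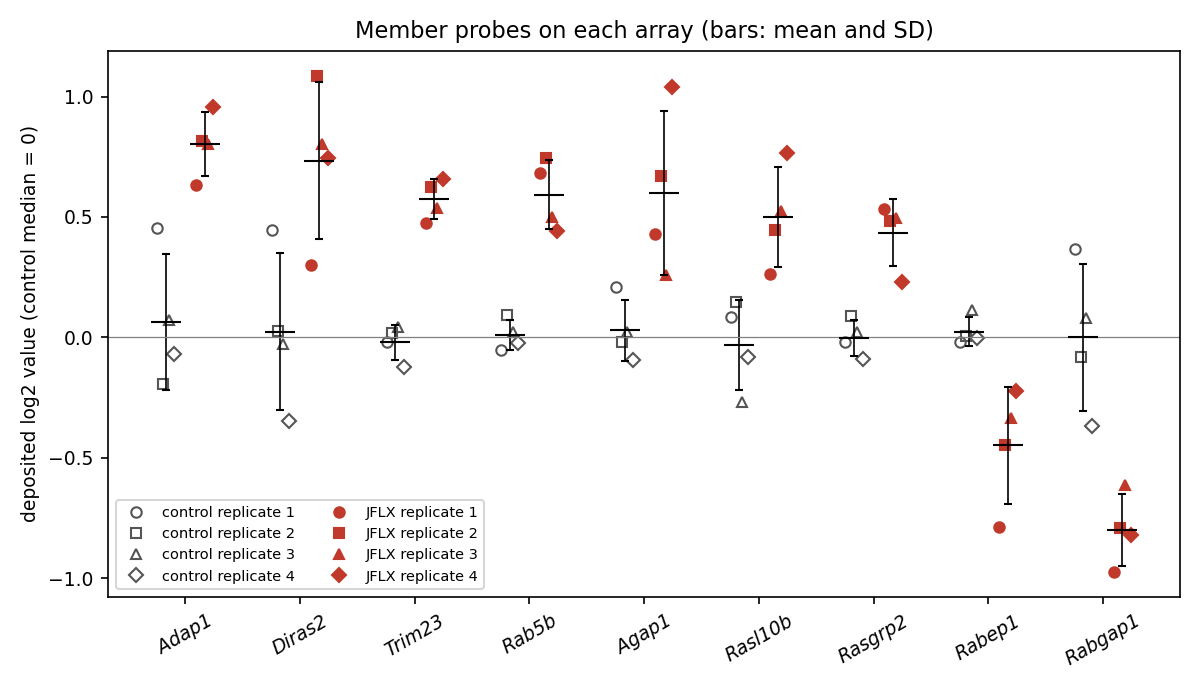
Deposited log2 value of each member probe on each array, with the control median of each probe at 0. Open symbols are the 4 controls, filled symbols the 4 JFLX arrays, and bars give the group mean and SD; Diras2 is the member whose groups overlap, and Rabep1 and Rabgap1 lie below the controls.

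Adap1, also called centaurin alpha-1, is a neuron-enriched GAP for Arf6 that binds the membrane lipid PIP3. In controls its values were 0.45, -0.20, 0.07 and -0.07, and its JFLX values were 0.63, 0.81, 0.80 and 0.96. Control replicate 1 came near the JFLX arrays, but the groups did not overlap. The difference was 0.74 ± 0.16, or 1.67-fold higher.

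Trim23 is a ubiquitin ligase that carries an Arf-like GTPase domain. Trim23 had control values of -0.02, 0.02, 0.04 and -0.12, and JFLX values of 0.47, 0.63, 0.54 and 0.66. These were the most tightly grouped values of the 9 members, with a pooled SD of 0.08. The difference was 0.59 ± 0.09, or 1.51-fold higher.

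Agap1 is an Arf GAP that acts in endosomal sorting. The controls were at 0.21, -0.02, 0.02 and -0.09, and the JFLX arrays at 0.43, 0.67, 0.26 and 1.04. The JFLX arrays were widely spread, and a gap of 0.05 separated the lowest of them from the highest control. The difference was 0.57 ± 0.18, or 1.48-fold higher.

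Diras2 is a Ras-like GTPase found mainly in brain. Its control values were 0.44, 0.03, -0.03 and -0.35, and its JFLX values were 0.30, 1.09, 0.80 and 0.75. JFLX replicate 1 lay below control replicate 1, which made Diras2 the member whose groups overlapped. The difference was 0.71 ± 0.22, or 1.64-fold higher, and its pooled SD of 0.33 was the largest of the members.

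Rasl10b, a further Ras-like GTPase, had control values of 0.08, 0.15, -0.27 and -0.08 and JFLX values of 0.26, 0.45, 0.53 and 0.77. The groups did not overlap. The difference was 0.53 ± 0.15, or 1.45-fold higher.

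Rasgrp2 is an exchange factor that loads Rap proteins with GTP in response to calcium and diacylglycerol. Its control values were -0.02, 0.09, 0.02 and -0.09, and its JFLX values were 0.53, 0.48, 0.50 and 0.23. The groups did not overlap, and JFLX replicate 4 stood below the other JFLX arrays. The difference was 0.44 ± 0.10, or 1.35-fold higher, the smallest in size of the 9.

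In order of size the differences ran from 0.80 for Rabgap1 through Adap1, Diras2, Trim23, Rab5b, Agap1, Rasl10b and Rabep1 to 0.44 for Rasgrp2. Each gap between neighbours in this order was between 0.06 and 0.49 times an SE that treated the probes as independent. The probes share the same arrays, so this SE is approximate, and the order of neighbours is not read as a result. The changes were modest: 5 members differed by less than 1.5-fold, and 0 reached 2-fold. The median difference of the higher members was 0.58, beside 0.57 for all listed higher probes, and that of the lower members was -0.64, beside -0.59. Over all probes with a value the median difference was 0.04. The members' pooled SD had a median of 0.20, compared with 0.23 for the listed probes and 0.27 for all probes. The limit on p favoured probes with a small spread on these same arrays, so nothing is read from this comparison.

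With limma across all probes and Benjamini-Hochberg adjustment, 3 higher members (Adap1, Trim23 and Rab5b) and 1 lower member (Rabgap1) were past the adjusted threshold of 0.05. Over all probes 5.89% were called higher and 0.355% lower. By the simpler measure of groups that do not overlap, 6 members had JFLX above and 2 had JFLX below, where the shares of all probes were 10.0% and 2.95%. Nothing is read from these counts, because the same contrast chose the members. The calls depended on single arrays: 1 member, Trim23, was called without JFLX replicate 1, and 2 were called without control replicate 2, control replicate 3 or JFLX replicate 2. With quantile normalization, with trend and robust variance, or with the replicate block, limma called 0 members, although 7, 9 and 9 of them had an unadjusted p under 0.05.

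The same arrays tended to be extreme in several members. JFLX replicate 1 was the lowest JFLX array in 6 members, namely Adap1, Diras2, Trim23, Rasl10b, Rabep1 and Rabgap1. JFLX replicate 4 was the highest in 5 members and the lowest in Rab5b and Rasgrp2. Control replicate 4 was the lowest control in 5 members. The same counts were not made over all probes, so nothing is read from those of the members.

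The authors' table also gives background-subtracted intensities before normalization, in columns that are labelled by group but not by replicate number. Rabgap1 had control intensities of 506, 610, 705 and 852 and JFLX intensities of 212, 338, 370 and 461, which did not overlap. Rabep1 was likewise separate, with controls from 680 to 816 and JFLX arrays from 350 to 609. Agap1 was the only higher member whose groups were separate on this scale, with controls from 38.6 to 50.3 and JFLX arrays from 50.8 to 67.2.

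In the other 6 members the groups overlapped before normalization. Rab5b had control intensities of 69.0, 75.1, 75.8 and 93.5 and JFLX intensities of 59.9, 117, 126 and 127. Rasgrp2 had 68.4, 71.7, 76.3 and 92.6 in controls and 51.4, 105, 112 and 116 in JFLX. In both genes 3 JFLX arrays were above all controls and 1 was below all of them.

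That array was the same in all 9 members, the JFLX array named JF5 in the authors' table, which had the lowest JFLX intensity each time. Its median intensity over the listed probes was 32.5, while the other JFLX arrays had medians of 57.3 to 63.5 and the controls 36.7 to 51.0. Without JF5 the intensities of 7 members were separate, all but Diras2 and Rasl10b. Leaving out an array cannot lower such a count. No share over all probes can be set beside the counts with or without JF5, since intensities were given for listed probes only. Nothing is read from these counts. The log2 intensity difference of Rab5b was 0.40 with JF5 and 0.66 without it, and that of Rasgrp2 was 0.26 and 0.53. For the lower members it was -0.65 and -0.52 in Rabep1 and -0.98 and -0.76 in Rabgap1. In the deposited values without JFLX replicate 4 the difference was 0.63 in Rab5b, 0.50 in Rasgrp2, -0.55 in Rabep1 and -0.79 in Rabgap1. The differences without JF5 lay above those without JFLX replicate 4 by the same amount in all 9 members. JF5 is thus JFLX replicate 4. Over all probes this array had the highest deposited median, 0.12, and the highest 75th percentile, 0.44. It also had the lowest array weight, 0.39. Without it, limma called 3 members, Rab5b, Rasgrp2 and Trim23, and no longer called Adap1 and Rabgap1. The part of this array's scaling by itself in the results was not tested.

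**Figure D2:**
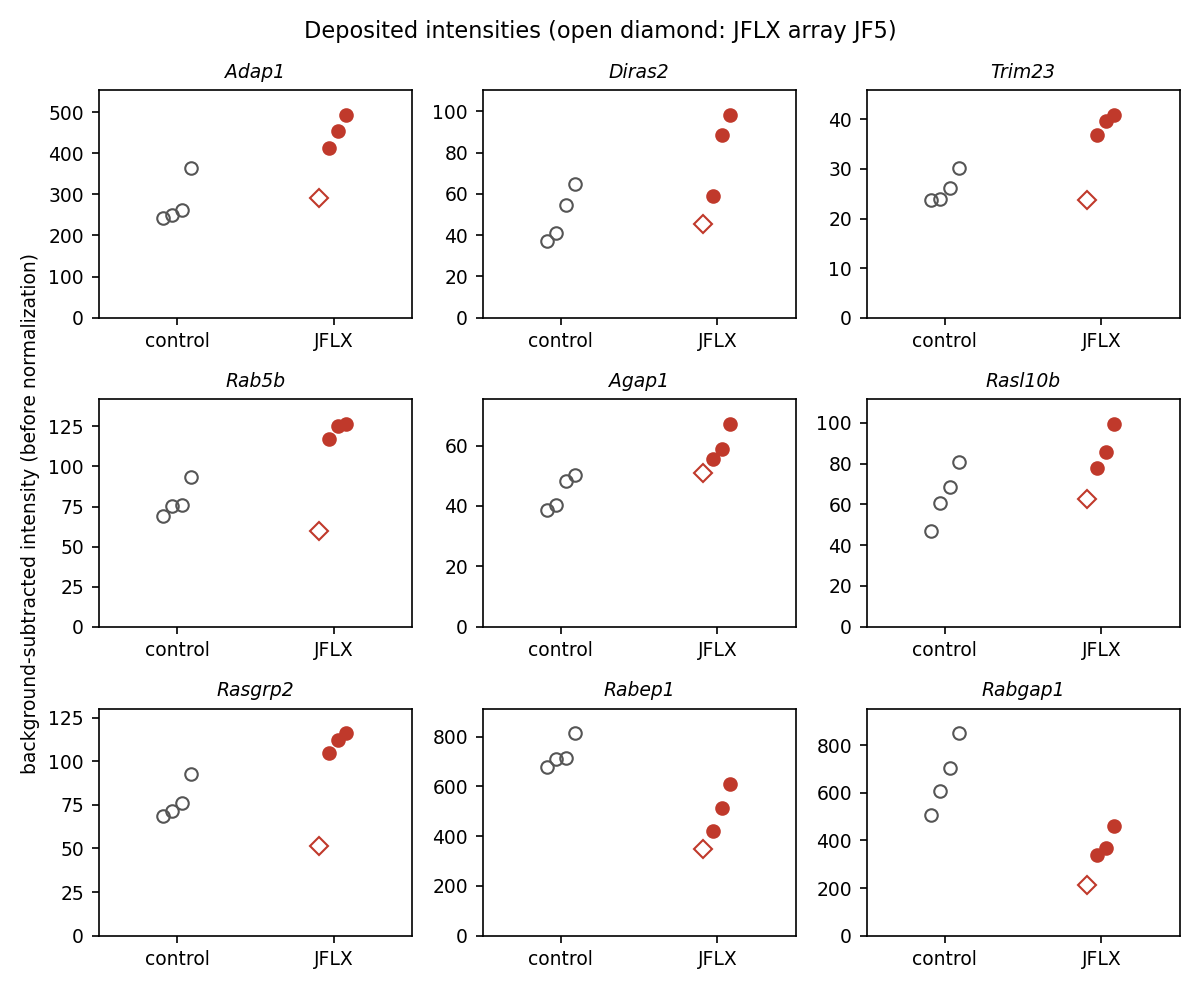
Background-subtracted intensity of each member before normalization, linear axes from 0, with 1 point per array. The open diamond is the JFLX array JF5, the lowest JFLX array in all 9 panels; Agap1, Rabep1 and Rabgap1 are the members whose groups are separate.

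The size of the differences depended on the scaling, and nothing is read from their side, which the selection had used. With quantile normalization the difference was 0.36 in Adap1, 0.36 in Rab5b and 0.40 in Trim23. When each array was centred on its 75th percentile, Rabep1 reached -0.67 and Rabgap1 -0.99, while Rasgrp2 was at 0.24. Under that centring the median of all probes moved by -0.19, so that the higher members became smaller and the lower ones larger together. Both scalings were applied to the deposited values, where the control median of each probe is at 0. This draws the control arrays towards 0: their SDs over all probes were 0.35 to 0.52, beside 0.64 to 0.74 in JFLX. Making the arrays alike thus acts unequally on the groups by construction. The share of this in the changes was not tested. All 8 arrays lay on 1 slide, with controls and JFLX in separate blocks of positions, so position and treatment cannot be told apart.

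**Figure D3:**
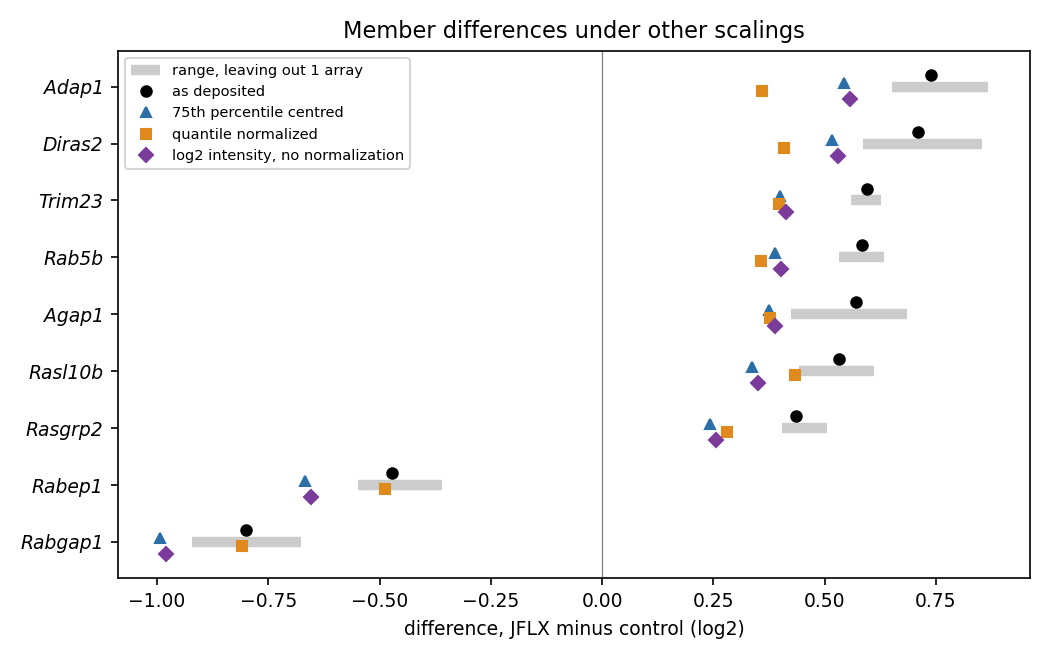
Difference of each member, JFLX minus control on the log2 scale, as deposited, under other scalings, and as log2 intensity before normalization; grey bars give the range when 1 array is left out. The size varies with the scaling, with Rabgap1 between -0.99 and -0.68 and Adap1 between 0.36 and 0.87.

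The wider family was read through lists of 325 genes of the Rab, Arf and Ras families and their regulators. The authors listed 24 of these genes, 17 higher and 7 lower. Of all probes 3.83% were listed, 322 higher and 260 lower. How many of the 325 genes have a probe is not known, since unlisted probes carry no gene name. The counts per list are thus not listing rates and cannot be set beside that share. Of the 24 listed genes, 6 higher and 3 lower ones were past the limma threshold, which 5.89% and 0.355% of all probes passed. Quantile normalization left 0 calls among all probes, and trend with robust variance left 0 lower calls, where 1298 probes and 369 lower probes had an unadjusted limma p under 0.05. Apart from the members there were 15 genes, 10 higher and 5 lower, and they too had been selected by the same contrast. Of the 5 lower genes, Rab38, which was called, and Rab39a were detected on 0 JFLX arrays, and the lower bound on their fold was under 1, so no fold is given. The other 13 genes, with 14 probes, had differences from -0.47 to 0.85, and the groups did not overlap in 12 of the probes, 10 with JFLX above and 2 with JFLX below. Over all probes these shares were 10.0% and 2.95%, and nothing is read from the counts, since the contrast chose the probes.

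Among Rab GTPases, 4 of 61 genes were listed, 2 on each side. Rab31, a GTPase of endosomes and the trans-Golgi network, was 0.85 ± 0.15 higher and was called. Among Rab regulators and effectors 7 of 88 were listed, 3 higher and 4 lower. Rph3a, rabphilin, a Rab3 effector on synaptic vesicles, was 0.77 ± 0.11 higher, and Rab11fip3, an effector of Rab11 in recycling endosomes, was 0.76 ± 0.13 higher, and both were called. The GAP-domain gene Tbc1d13 was at 0.61 ± 0.16 and not called. On the lower side Rab3ip, an exchange factor for Rab8, was at -0.47 ± 0.10 and called, and Rabac1, a Rab-binding membrane protein, was at -0.39 ± 0.16 and not called. Effectors and regulators of Rab proteins were thus found on both sides.

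In the Arf family the listed genes were all higher. Trim23 was the 1 listed gene of 31 in the list of Arf-type GTPases, and 5 of 47 Arf regulators and effectors were listed. Besides Adap1 and Agap1 these were Agfg2 at 0.63 ± 0.20, Agap2 at 0.39 ± 0.11 and the Arf6 exchange factor Psd at 0.36 ± 0.12, none of them called.

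Of 40 Ras-type GTPases 4 were listed, all higher and 0 called by limma. Rragc, which signals amino acid supply to mTORC1, was at 0.53 ± 0.15. Of 58 Ras and Rap regulators 3 were listed, and 0 were called. Rasgrp1, an exchange factor for Ras, was at 0.52 ± 0.14, close to its relative Rasgrp2, and Tsc2, the GAP for Rheb, was at -0.47 ± 0.12. Over all probes, 2350 had an unadjusted limma p under 0.05.

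**Figure D4:**
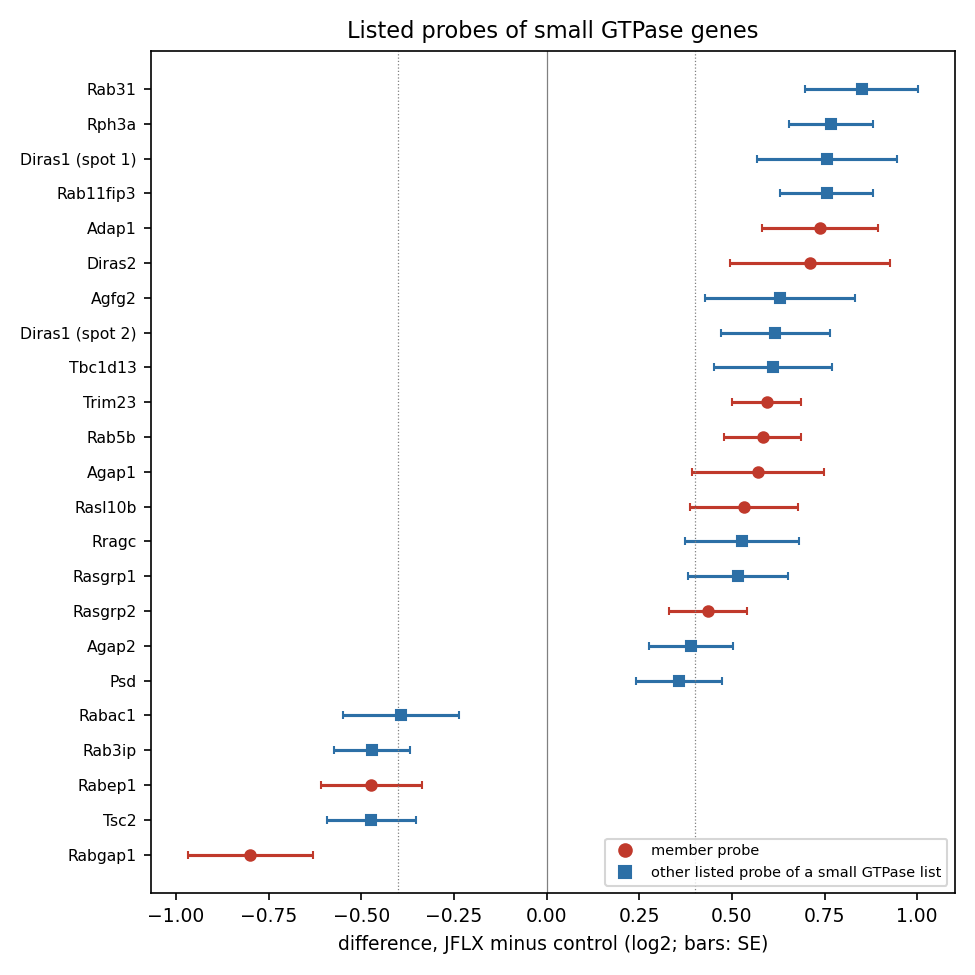
Difference between JFLX and control, log2 with moderated SE, for the 9 members (circles) and 14 other listed probes of 13 small GTPase genes (squares). Diras1 has 2 spots, and dotted lines are at 0.4 and -0.4, the limits on the mean JFLX value; Rabgap1 is the lowest probe shown at -0.80, apart from the other lower probes at -0.47 to -0.39, and Rab38 and Rab39a, detected on 0 JFLX arrays, are left out.

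Diras1, the closest relative of Diras2 in the lists, gave a view of how far 1 sequence varies within an array, since it was printed on 2 spots. The spots differed by at most 0.04 on the control arrays. On JFLX replicates 1, 3 and 4 they differed by 0.36, 0.55 and 0.37, and on JFLX replicate 2 by 0.02. Their group differences were 0.62 ± 0.15 and 0.76 ± 0.19. Over the 25 sequences listed more than once, the median SD between spots within an array was 0.07, a value not split by group. It is an SD, whereas the Diras1 values are absolute differences, so the Diras1 spots are not ranked against it. The values of each spot were set to its own control median, which draws the spots together on the control arrays. Their closeness there is thus partly built in and is no baseline for the JFLX arrays.

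The Diras2 probe (chr17:18604129-18604188) and the Diras1 probe (chr7:10174907-10174966, both plus strand) are printed because the genes are relatives. The probes were aligned to each other and not to the other gene's transcript. The match thus does not show how far the genes can be told apart. The best local alignment held 12 identical bases of 14 aligned, with a longest identical run of 5. Cross-hybridisation was not tested.
Diras2 probe: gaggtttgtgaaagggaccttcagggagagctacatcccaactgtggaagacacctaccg
Diras1 probe: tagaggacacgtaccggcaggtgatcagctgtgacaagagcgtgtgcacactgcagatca

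The probes of the other members with a listed relative, again aligned only to the relative's probe, also matched over short stretches. Rab5b and Rab39a matched at 19 of 26 aligned bases with a longest identical run of 7, and Rab5b shared runs of 5 with Rab31 and 6 with Rab38. Rasgrp2 and Rasgrp1 matched at 13 of 19 bases, and Agap1 and Agap2 shared a run of 7. No member's probe sequence was shared with another listed probe. The GC content of the probes had a median of 48.3% for the higher members and 39.2% for the lower ones, beside 45% for the listed probes of either side.

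For each member the most similar listed gene was taken as the named one with the smallest root mean square difference over the 8 arrays. This was Cop1 for Trim23 (0.06), Usp7 for Rasgrp2 (0.06), Nup58 for Rasl10b (0.10), Spop for Rab5b (0.11) and Lars1 for Rabep1 (0.11). It was Hs6st1 for Agap1 (0.12), Snx10 for Adap1 (0.15) and Rims4 for Diras2 (0.18). For Rabgap1 it was Slc5a5, the sodium-iodide symporter, at 0.20. None of these genes is in the small GTPase lists.

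Promoter windows of 250 bases before to 50 after the gene start were found for 7 members in RefSeq GRCr8, not for Rabep1 and Rasl10b. The start used lay inside the annotated gene by 27202 bases in Diras2, 1700 in Rasgrp2 and 200 in Rab5b, and by at most 24 in the others. They are shown for Rab5b and Rabgap1, which lay on opposite sides. Capitals mark the GC box GGGCGG on either strand, which 6 of the 7 windows held, all but that of Diras2, and 33.1% of 33469 rat promoters. That share is over all rat promoters and not those of listed genes, so nothing is read from the difference. Windows are chr7:1712687-1712986 (minus strand) for Rab5b and chr3:41617543-41617842 (plus strand) for Rabgap1, each read 5′ to 3′ along the gene.
Rab5b promoter: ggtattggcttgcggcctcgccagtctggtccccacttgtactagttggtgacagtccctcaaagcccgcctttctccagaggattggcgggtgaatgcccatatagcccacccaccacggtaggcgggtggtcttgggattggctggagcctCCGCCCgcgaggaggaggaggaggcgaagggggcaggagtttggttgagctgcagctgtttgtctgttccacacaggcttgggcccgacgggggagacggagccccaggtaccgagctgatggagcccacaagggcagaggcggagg
Rabgap1 promoter: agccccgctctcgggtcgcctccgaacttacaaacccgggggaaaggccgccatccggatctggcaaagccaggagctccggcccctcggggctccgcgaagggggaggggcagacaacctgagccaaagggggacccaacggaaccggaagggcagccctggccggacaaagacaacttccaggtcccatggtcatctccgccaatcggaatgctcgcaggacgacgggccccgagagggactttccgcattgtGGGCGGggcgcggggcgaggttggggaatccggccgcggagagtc

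The members' windows had a median GC content of 63.7%, beside 51.7% for all promoters. They ranged from 41% in Diras2 and 47% in Trim23, both below that median, to 80.3% in Adap1. Their median CpG observed-to-expected ratio was 0.81, beside 0.39. The other motifs searched, also on both strands, were CCAAT in 3 windows (37.5% of all promoters), CACGTG in 1, that of Rasgrp2 (6.42%), and TGACG in 1, that of Trim23 (21.2%). TGACGTCA, which contains TGACG, was in 0 windows (1.83% of all promoters), and TATAAA was in 0 (14.2%). A match is a stretch of letters and not evidence of binding. The shares and medians of all promoters are likewise not those of listed genes, so no trait of the members is read from them.

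Of 72 marker genes of the cell types in cortex, 7 were listed. Camk2a of excitatory neurons was at 0.56 ± 0.19, Kcnc1 of interneurons at 0.50 ± 0.14 and Neurod2 of excitatory neurons at -0.46 ± 0.15. None of these neuronal markers was called, and the groups overlapped in Camk2a and Neurod2. The listed neuronal markers were thus on both sides. The astrocyte enzyme Glul was at -0.51 ± 0.11 and called. The endothelial Pecam1 was at 0.68 ± 0.25 and not called, with overlapping groups and detection on 3 JFLX arrays. Lum and Ppbp were detected on 0 JFLX arrays, and 0 markers of oligodendrocytes, their precursors, microglia or pericytes were listed. Unlisted probes carry no gene name, so whether the unlisted markers had a probe or differed is not known. The part of cell composition in the members' values was not tested.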

How the data were processed

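Total RNA of 500 ng per sample was labelled with the Agilent Quick-Amp kit, per the labels' protocols. The authors deposited log2 values for 15207 probes on 8 arrays, with the control median of each probe at 0 and 0 values missing. Their lists of 582 probes also give background-subtracted intensity, a p-value and counts of arrays flagged as detected, per the file headers. No scanner software, background method or normalization is named in the sources used here. Group means in the deposited table equal those of the value table's arrays within 1e-07. Intensity columns were assigned to groups only, apart from JF5, which was matched to JFLX replicate 4 by its values. In each list 16 per-array columns of fold or flag were not used. The number of arrays limits the precision.

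All probes were fitted in R 4.3.3 by limma 3.58.1 (eBayes after lmFit, two-sided, Benjamini-Hochberg), and the fit was checked on simulated data. Tables and plots used Python 3.11.15, pandas 2.3.3 and matplotlib 3.10.9. Symbols came from the gene ID in RefSeq GRCr8, which matched 551 listed probes. Named genes are the members, every other listed gene of the Rab, Arf and Ras lists, the most similar listed gene of each member and the markers listed. A further family named in the planned rule is not reported here. The members and lists were chosen with earlier results of these data known. The alternatives were quantile, median and 75th-percentile scaling, trend with robust variance, array weights, a replicate block, a t-test per probe, unnormalized intensities and leaving out each array. Averaging several probes did not apply, as each member has 1.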

Additional observations from a re-analysis of the deposited data

Results flagged for a closer look

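In 4 of 50 groups of 4 arrays, 1 array stood far from the other 3 by Dixon's criterion, where chance gives about 1 in 20, or 2.5 groups. Rasgrp2 was 0.23 on JFLX replicate 4, while the other JFLX arrays were between 0.48 and 0.53. Rabep1 was 0.11 on control replicate 3, above the other controls at -0.02 to 0.00. Among the other listed genes, Rabac1 was -0.79 on JFLX replicate 4, beside -0.39 to -0.32. Rab11fip3 was -0.33 on control replicate 4, beside -0.01 to 0.04.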

How the results depend on the processing

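Over all probes limma called 950, of which 896 were higher and 54 lower, and 4 members. Quantile normalization gave 0 calls, 0 higher and 0 lower, and 0 members, with 1298 probes and 7 members at an unadjusted limma p under 0.05. Quantile and 75th-percentile scaling were applied to values already set to the control median, so they act unequally on the groups by construction. Trend with robust variance gave 0 lower calls (369 unadjusted) and 0 members (9 unadjusted). Centring on the 75th percentile gave 682 higher and 221 lower calls, so that 75.5% of calls were higher instead of 94.3%. Array weights gave 113 lower calls and 7 members. The replicate block gave 21 lower calls and 0 members (9 unadjusted), and samples with the same number deviated together with correlations of -0.28 to 0.40, so the numbers were not taken to pair samples. In a setting added after seeing the data, leaving out the 1088 higher and 29 lower unlisted probes within the authors' limits of fold and p left 6 calls, 6 higher and 0 lower, and 0 members (1248 probes and 9 members unadjusted). Taking out probes with a low p on this contrast raises the adjusted p of the rest. A fall in calls was thus fixed in advance, and nothing is read from it. Leaving out 1 array gave 19 to 62 lower calls and 1 to 3 members called. The 8 members with separate groups became 5 under quantile normalization, 5 under the 75th percentile and 3 on unnormalized intensities, an added setting. Leaving out 1 array gave 8 or 9, a count that could not fall, because separate groups stay separate with fewer arrays. Of 162 differences over members and alternatives, 36 could not change by construction, and of the other 126, 12 moved by more than 1 replicate SD and 0 reversed. This is no sign of stability, because the members were selected on the size and side of the same differences. The causes were not tested.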
